A study of Mus musculus with 24 samples.

Results

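The genes of DNA replication and S-phase repair were followed in GPCs, the glial progenitors that the study grew from mouse embryonic stem cells. The list holds 45 genes chosen by symbol for their known roles, and 42 of them have a named probe on the Illumina bead array, 68 probes in all, among 16593 genes with a named probe. Gins1, Gins2 and Rfc3 have no named probe and are not described further. Each gene is represented by its probe with the highest mean signal over the arrays.

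The series compared 6 groups on 19 arrays. Undifferentiated (3 arrays) and differentiated (3 arrays) cells carried Dgcr8 flox/delta, a conditional allele over a deleted one; knockout (Dgcr8 delta/delta) cells were undifferentiated and either from hybridization 1 (3 arrays, also called mock in the labels) or from hybridizations 2 and 3, where they received mock (4 arrays), Let7 (3 arrays) or miR125 (3 arrays). Dgcr8 encodes a part of the microprocessor, which cuts primary microRNA transcripts, so that knockout cells lack most microRNAs and single families can be given back to them. EGF and FGF in N2 medium kept the cells growing. To differentiate them both factors were withdrawn, and B27 and 1% FBS were supplied. Tamoxifen (1 uM for 16 h and 100 nM for 16 h), which induces such deletions, is labelled as the treatment of all knockout arrays and of no flox/delta array. The labels do not say which Cre drove the deletion, how many cell lines were used, or which let-7 and miR-125 molecules were given. Per the labels the replicate numbers of the let-7 and miR-125 experiments are separate tamoxifen treatments, and what the replicates of hybridization 1 are is not stated, so that p-values there measure the spread between arrays.

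Before a cell divides, the origin recognition complex with Cdc6 and Cdt1 loads the ring-shaped MCM helicase onto origins, which is called licensing. In S phase, Cdc45, GINS and Mcm10 turn the loaded ring into an active helicase, polymerase alpha with primase starts each strand, and polymerases delta and epsilon extend it on the sliding clamp Pcna. Fen1 and Lig1 join the fragments of the lagging strand, chromatin assembly factor 1 places histones on the new DNA, and repair and checkpoint proteins deal with breaks and mismatches. Many of these genes are transcribed under E2F factors, which act when cells enter S phase, and astrocytes that mature from dividing progenitors leave the cell cycle.

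Mean raw signal per array was 298 to 474 in hybridization 1, 1429 to 1523 in hybridization 2 and 756 to 868 in hybridization 3, so no level was compared between hybridization 1 and the others. Of the 42 genes with a probe, between 33 and 35 per group were detected on every array (detection p under 0.05). Probes differ in how brightly they report a transcript, so no gene's level was set against another gene's. Of 10 glial progenitor markers 9 were detected on all undifferentiated flox/delta arrays and 8 on all knockout arrays of hybridization 1. Of 8 astrocyte markers 6 were detected on all of these flox/delta arrays and 3 on all of these knockout arrays. Gfap, the astrocyte filament gene, was detected on none of them. None of 3 microglia markers was detected on any array of hybridization 1. The pluripotency marker Dppa5a ranged from 5.05 to 8.83 (log2 signal) on the undifferentiated flox/delta arrays.

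The promoter windows are shown because the genes below moved together in differentiation. RefSeq windows from 250 bases before to 50 bases after an annotated start (build GRCm38) were found for 37 of the 45 genes. An E2F motif, searched as TTTCCCGC, TTTCGCGC, TTTGCCGC or TTTGGCGC on both strands, was present for 15 of these 37 genes (40.5%), against 704 of 27025 genes of the table (2.6%) and 744 of 32851 windows (2.26%). The motif CCAAT was present for 25 of 37 (67.6%, against 41.1% of all genes) and CHR, searched as TTTGAA or TTCGAA, for 6 of 37 (16.2%, against 21.7%). Base composition was not matched, and a match describes letters only. Motif sites could overlap. Windows are given 5′ to 3′ on the strand of the gene, with E2F matches in capitals, for 4 of the genes that hold a match. They are Pclaf, the gene with the largest fall in differentiation, at chr9:65890073-65890372, plus strand, Mcm5 and Mcm3, subunits of the helicase, at chr8:75109259-75109558, plus strand and chr1:20820263-20820562, minus strand, and Cdc6, which loads that helicase, at chr11:98907901-98908200, plus strand. In the Mcm5 window a pair of matches overlaps, so that the capitals form a single run. Chaf1b and Mcm10, which had the largest falls after Pclaf (-4.17 and -4.10), have no E2F match in their windows.
Pclaf: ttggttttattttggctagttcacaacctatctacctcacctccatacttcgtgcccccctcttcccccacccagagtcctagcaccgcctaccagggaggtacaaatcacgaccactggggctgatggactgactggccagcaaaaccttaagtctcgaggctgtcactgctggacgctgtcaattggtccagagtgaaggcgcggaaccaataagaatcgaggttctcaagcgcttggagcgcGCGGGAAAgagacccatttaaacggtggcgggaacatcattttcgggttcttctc
Mcm5: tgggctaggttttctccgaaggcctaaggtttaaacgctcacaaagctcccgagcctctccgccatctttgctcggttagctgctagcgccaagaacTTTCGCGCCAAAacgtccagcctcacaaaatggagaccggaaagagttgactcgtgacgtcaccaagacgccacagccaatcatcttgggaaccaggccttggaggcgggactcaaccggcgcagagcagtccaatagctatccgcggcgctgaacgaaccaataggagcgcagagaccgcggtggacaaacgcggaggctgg
Mcm3: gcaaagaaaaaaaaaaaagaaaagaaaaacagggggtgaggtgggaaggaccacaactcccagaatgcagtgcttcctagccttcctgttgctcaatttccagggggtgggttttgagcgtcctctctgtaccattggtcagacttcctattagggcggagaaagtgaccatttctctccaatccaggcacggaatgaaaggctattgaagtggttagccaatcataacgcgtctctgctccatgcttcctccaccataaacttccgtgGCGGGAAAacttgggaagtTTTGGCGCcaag
Cdc6: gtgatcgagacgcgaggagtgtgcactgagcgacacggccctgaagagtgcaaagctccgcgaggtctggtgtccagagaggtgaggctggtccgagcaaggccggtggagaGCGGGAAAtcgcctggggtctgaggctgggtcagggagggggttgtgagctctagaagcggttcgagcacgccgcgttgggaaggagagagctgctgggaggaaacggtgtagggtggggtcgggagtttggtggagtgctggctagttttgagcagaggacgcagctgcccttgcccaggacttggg

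**Figure D1:**
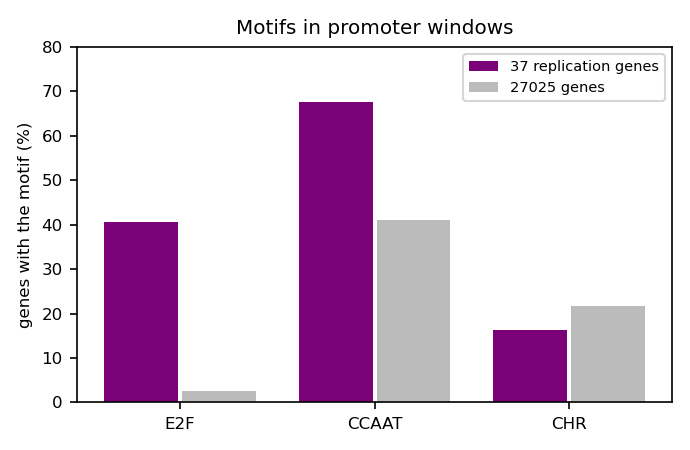
Bars give the percentage of genes whose promoter window holds each motif, for the 37 replication genes with a window (purple) and for all 27025 genes of the RefSeq table (grey). The E2F bar of the replication genes stands at 40.5% beside 2.6%, and the CHR bar at 16.2% beside 21.7%.

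Of the microRNAs added back, mature sequences are shown with the seed (bases 2 to 8) in capitals, because let-7 and miR-125 do not share a seed and the labels do not say which family member was used. The 8 let-7 species and miR-98 in the table carry 1 seed, of which let-7a is printed, and miR-125a and miR-125b carry another. miR-93, miR-106b and miR-25 are added because their hairpins lie on the minus strand of chromosome 5 within Mcm7 (chr5:138164583-138172111, GRCm38), a member of the list whose transcript is their host. miR-93 and miR-106b share a seed.
mmu-let-7a-5p: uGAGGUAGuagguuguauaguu
mmu-miR-125a-5p: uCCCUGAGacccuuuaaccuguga
mmu-miR-125b-5p: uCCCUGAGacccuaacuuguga
mmu-miR-93-5p: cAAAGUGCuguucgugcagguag
mmu-miR-106b-5p: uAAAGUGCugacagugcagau
mmu-miR-25-3p: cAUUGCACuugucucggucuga

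With differentiation, replication genes were lower in every functional role. Of 34 tested genes 33 fell and 0 rose, where 27.2% of 9382 genes fell and 28% rose (limma, adjusted p under 0.05, 3 arrays against 3). The median log2 difference of the 34 was -2.64, against -0.01 over all genes tested. For each of the 33 the differentiated and undifferentiated arrays did not overlap (30.7% of all genes were lower without overlap). In bulk RNA, fewer cells in S phase and less RNA per cell cannot be told apart.

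Among the licensing genes, 9 of 10 tested fell, with a median of -3.13. Mcm5, a helicase subunit, was at 11.37, 11.56 and 11.54 on the undifferentiated arrays and at 7.51, 7.50 and 7.67 on the differentiated arrays (log2 signal, replicates 1 to 3). All 3 differentiated arrays lay far below all undifferentiated arrays, and the gene fell by 3.93 ± 0.10 (SE) on the log2 scale, 15.2-fold (adjusted p = 1.16e-08). Mcm3 went from 8.56, 8.79 and 9.0 to 5.35, 4.83 and 5.17 and fell by 3.67 ± 0.16. Mcm2 went from 9.61, 10.01 and 9.94 to 6.56, 6.45 and 6.75 and fell by 3.26 ± 0.13. The helicase subunits Mcm6, Mcm7 and Mcm4 followed, at -3.15 ± 0.11, -3.11 ± 0.13 and -2.26 ± 0.12, and the other Mcm4 probes were at -1.20 and -1.38.

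Cdt1, the loader that is destroyed once S phase begins, was at 9.10, 9.55 and 9.66 before and 6.16, 5.99 and 5.80 after differentiation (-3.45 ± 0.16, adjusted p = 2.15e-07). Cdc6, the ATPase that works with Cdt1, was at 6.97, 7.85 and 7.93 and then at 4.79, 5.18 and 4.84 (-2.65 ± 0.24, adjusted p = 1.80e-05). Undifferentiated replicate 1 was the lowest of its group for both genes, and still more than 1 log2 unit above every differentiated array. A second, dimmer Cdc6 probe fell by 0.68. Of the origin recognition complex, Orc6 fell by 0.96 ± 0.11, and Orc2, at 4.67, 5.24 and 4.81 before and 4.87, 4.67 and 4.76 after, was the tested member that did not pass (-0.14 ± 0.15, adjusted p = 0.456), with overlapping groups. Orc2 was near background, detected on 2 of 3 undifferentiated and 3 of 3 differentiated arrays, and whether this limited a fall was not tested. Orc1 and Gmnn, the inhibitor of Cdt1, were not detected on any differentiated or undifferentiated array of this comparison and were not tested.

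The helicase activators fell steeply. Mcm10, which helps to open the loaded helicase, was at 9.78, 9.80 and 9.95 and then at 5.85, 5.66 and 5.71, and fell by 4.10 ± 0.10 (17.2-fold, adjusted p = 9.10e-09). Cdc45, a part of the moving helicase, was at 8.71, 8.77 and 8.67 and then at 5.59, 5.51 and 5.79, and fell by 3.09 ± 0.10. For both genes the replicates of a group lay close together and the groups far apart.

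All 6 tested genes of the clamp and its loader fell (median -2.17), over the widest range of any role. Pclaf, a small protein that binds Pcna, had the largest fall of the whole list: it was at 10.11, 10.21 and 9.98 before and 4.88, 5.14 and 5.42 after, 31-fold lower (-4.95 ± 0.14, adjusted p = 1.71e-08). Pcna itself was at 7.18, 7.44 and 7.19 and then at 5.14, 5.42 and 5.25 (-2.0 ± 0.12). Rfc1, the large subunit of the clamp loader, was at 9.57, 9.72 and 9.78 and then at 8.58, 8.59 and 8.73, 2.08-fold lower (-1.06 ± 0.10). The other loader subunits were at -1.10 (Rfc2), -2.72 (Rfc4) and -2.35 (Rfc5), and a second Rfc4 probe was at -1.32. Differences between these subunits were not tested.

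The single-strand binding proteins, replication protein A, had the smallest median of the 8 roles (-1.43 over 3 genes). Rpa1, the large subunit, which also serves repair, was at 11.91, 11.93 and 11.99 and then at 11.20, 11.20 and 11.24. This was the smallest passing difference of the list (-0.73 ± 0.09, 1.66-fold), and the groups still did not overlap. Rpa3, the small subunit, was at 10.27, 10.46 and 10.26 and then at 8.78, 9.03 and 8.89 (-1.43 ± 0.11), and Rpa2 fell by 2.06 ± 0.13, with its other probe at -0.99.

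All 5 tested polymerase and primase genes fell (median -1.70). Pold1, the catalytic subunit of polymerase delta, was at 9.98, 10.28 and 10.32 and then at 7.11, 7.37 and 7.30 (-2.94 ± 0.12). Pole, the catalytic subunit of polymerase epsilon, was at 7.50, 7.87 and 7.86 and then at 5.04, 4.72 and 5.02 (-2.82 ± 0.14). Both catalytic subunits fell by more than the accessory subunit genes Pold2 (-1.40) and Pola2 (-1.70) and the primase subunit gene Prim2 (-1.70), a comparison of differences whose own difference was not tested. Pola1 and Pole2 were detected on none of the 6 arrays and Prim1 on 1, and they were not tested. Pola1 was at 4.29, 4.20 and 4.22 and then at 4.28, 4.36 and 4.27.

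Both genes of fragment joining and both of chromatin assembly fell. Lig1, the DNA ligase of replication, was at 9.80, 10.09 and 9.96 and then at 6.45, 6.35 and 6.66 (-3.46 ± 0.12, 11-fold). The other Lig1 probes differed, at -2.96, -1.01 and -0.06, and the last did not pass. Fen1, the flap nuclease, was at 10.56, 10.79 and 10.78 and then at 8.03, 8.08 and 8.13 (-2.63 ± 0.10). Chaf1b, a subunit of chromatin assembly factor 1, was at 9.10, 9.26 and 9.62 and then at 5.38, 5.02 and 5.07 (-4.17 ± 0.16, 18-fold, adjusted p = 6.18e-08). Its partner Chaf1a fell by 3.05 ± 0.11.

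In repair, 4 genes were tested and 4 fell. Rad54l, which acts in homologous recombination, was at 8.85, 8.76 and 8.74 and then at 6.42, 5.73 and 6.10 (-2.70 ± 0.16). Msh6, of mismatch repair, was at 10.20, 10.79 and 10.70 and then at 9.52, 9.47 and 9.41, a smaller change (-1.10 ± 0.15, 2.14-fold). The helicase gene Blm and the recombination gene Brca2 were at -2.35 ± 0.11 and -1.79 ± 0.11. Brca1, Exo1 and Chek1 did not reach the filter of detection on 3 arrays. Chek1, the checkpoint kinase of S phase, was at 4.58, 4.74 and 4.68 and then at 4.24, 4.27 and 4.26, and it was detected on none of these 6 arrays.

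**Figure D2:**
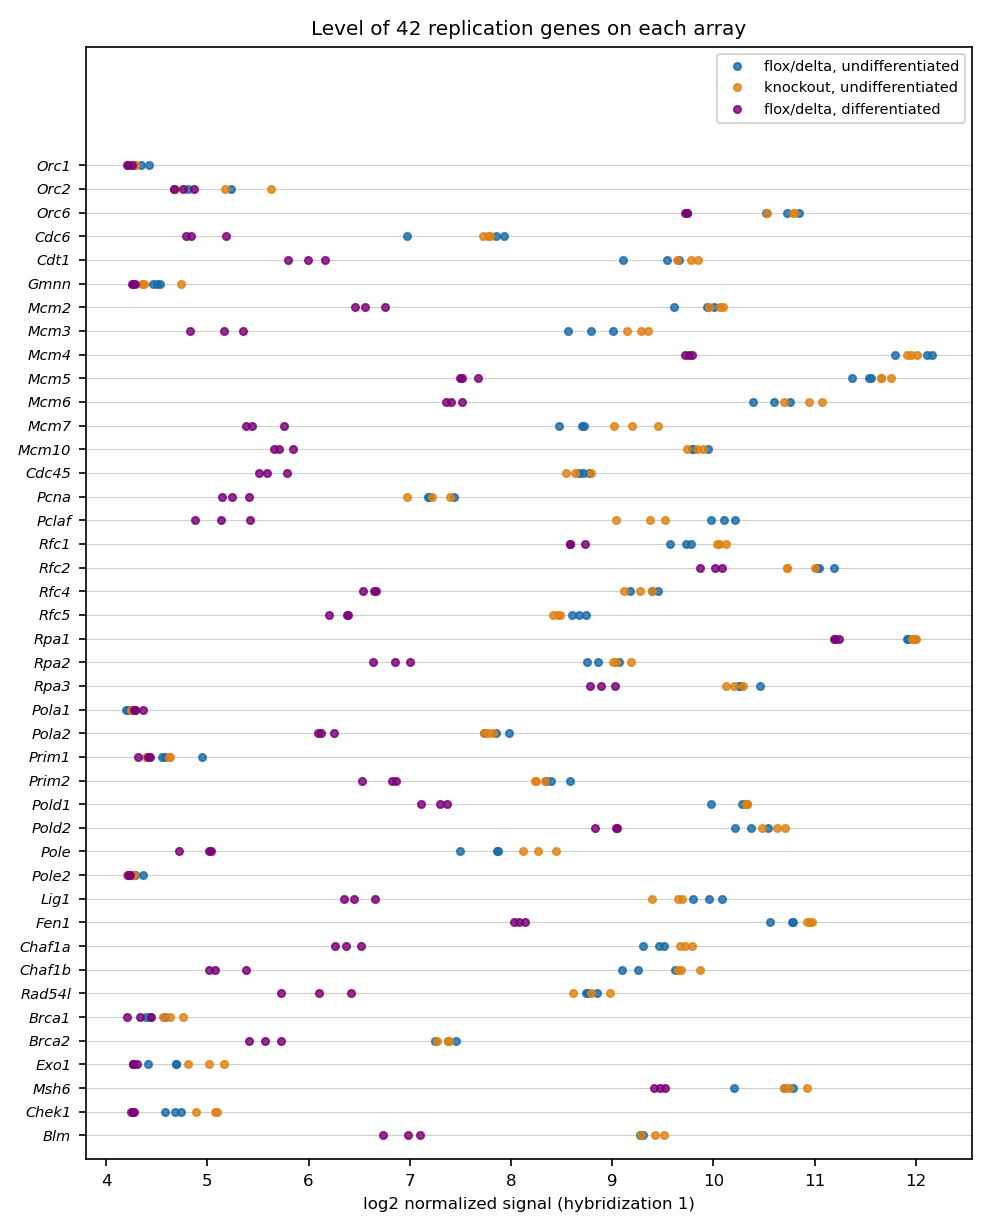
Each point is the log2 normalized signal of a gene on an array of hybridization 1, for undifferentiated flox/delta (blue), undifferentiated knockout (orange) and differentiated flox/delta cells (purple), 3 arrays each, with genes in the order of their roles. For Mcm5 the purple points lie at 7.50 to 7.67 and the blue points at 11.37 to 11.56, while Orc1 and Pola1 sit at background in all groups.

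The fall was alike in size across replicate numbers. Within the pairs numbered 1, 2 and 3 the median of the 34 genes was -2.45, -2.69 and -2.64, and 33, 34 and 34 of them were negative. The numbers of hybridization 1 are not known to pair the samples. Genes with an E2F match in the promoter window had a median of -3.15 (11 tested), and those with a window and no match had -2.35 (19 tested), which is given as a description. The ranges overlapped, from -4.95 to -1.10 and from -4.17 to -0.14.

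Other genes of replication and repair, from a list of 61 with 53 on the array, fell in the same comparison: 37 of 42 tested were lower and 0 higher, with a median of -1.60. Uhrf1, which keeps DNA methylation through replication, was at -4.0 ± 0.11, Clspn, the checkpoint adaptor claspin, at -3.93 ± 0.11, and Dbf4 and Cdc7, the kinase pair that fires origins, at -2.93 ± 0.11 and -2.29 ± 0.11. Orc3 and Orc4, the other tested subunits of the origin complex besides Orc5 (-0.56 ± 0.10), did not pass, at 0.12 ± 0.11 and 0.08 ± 0.12. Of 15 tested mitosis genes 15 fell, with a median of -4.07, beside -2.64 for the replication genes. Markers of other cell types moved in the same arrays. The summed signal of 8 astrocyte markers was 11490 to 12250 on undifferentiated and 34500 to 37120 on differentiated arrays. Of these 8, 6 and 7 were detected on all arrays. For 4 oligodendrocyte markers the sum was 209 to 344.2 and then 7360 to 8065, with 1 and 3 detected on all. Gpr17 made up most of that sum, at a mean of 7.55 before and 12.74 after (log2 signal). Mbp was at 4.84 and 9.71, Mag at 4.46 and 5.0 and Mog at 4.35 and 4.63. Of 5 tested neuron markers 3 rose, with Dcx, a gene of young neurons, at a mean of 5.71 before and 9.20 after (log2 signal), Rbfox3 at 5.36 and 7.28, and Elavl3 at 4.58 and 6.54. Their summed signal over 7 markers was 4404 to 5038 and then 5563 to 6203. Acta2, of smooth muscle, was at 4.41 and then at 6.82, while the sum of 8 mesenchymal and smooth muscle markers was 268 to 279 and then 246 to 289.8. For 6 pluripotency markers the ranges overlapped, at 190 to 704.5 and 152.2 to 314.9. Of these, Esrrb ran from 5.82 to 6.81 on undifferentiated and from 4.38 to 4.81 on differentiated arrays (log2 signal). The part of these cells in the fall of replication genes was not tested.

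Between knockout and flox/delta cells most replication genes did not pass the test. Dgcr8 was at 7.29, 7.48 and 7.26 on the flox/delta and 6.805, 7.02 and 6.66 on the knockout arrays (log2 signal) and fell by 0.52 ± 0.12 (adjusted p = 0.00512), on a probe whose place relative to the deleted part is not known, so that it checks nothing about the deletion. Of 36 tested genes 8 were higher in knockout than in flox/delta cells, 2 were lower and 26 did not pass, where 28.3% of 9107 genes were higher and 26.6% lower. In either direction 10 of 36 passed, where 54.8% of all genes did. Of the 8 higher genes, Chek1 and Exo1 reached the detection filter through the knockout arrays, the group where they were higher. With another background correction (normexp and median scaling) 3 were higher and 1 lower. The median log2 difference of the 36 was 0.16, beside 0.02 for all genes, and it was 0.04 without flox/delta replicate 1. Since tamoxifen and mock treatment are labelled for the knockout arrays only, treatment and genotype cannot be told apart. These differences share their flox/delta arrays with the differentiation comparison.

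Among the licensing genes Mcm7 and Mcm3 rose. Mcm7, the helicase subunit whose transcript carries the hairpins shown above, was at 8.47, 8.70 and 8.73 in flox/delta and 9.20, 9.01 and 9.45 in knockout cells, and rose by 0.59 ± 0.13 (SE), 1.5-fold (adjusted p = 0.00429). Mcm3 was at 9.28, 9.15 and 9.35 in knockout cells and rose by 0.47 ± 0.12 (adjusted p = 0.0108). No knockout array overlapped a flox/delta array for either gene. The other licensing genes did not pass. Mcm5 was at 11.66, 11.66 and 11.75 in the knockout (0.20 ± 0.09, adjusted p = 0.0991) and Mcm2 at 10.07, 9.96 and 10.10 (0.19 ± 0.12). Cdt1 was at 9.64, 9.78 and 9.85 (0.32 ± 0.15) and Cdc6 at 7.77, 7.79 and 7.72 (0.18 ± 0.22), with overlap in both. Mcm6 missed the threshold at 0.33 ± 0.13 (adjusted p = 0.0605).

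Polymerase epsilon, the large clamp loader subunit and chromatin assembly factor 1 were also higher. Pole was at 8.27, 8.44 and 8.12 and rose by 0.53 ± 0.13 (adjusted p = 0.00795). Rfc1 was at 10.04, 10.12 and 10.05 and rose by 0.38 ± 0.09 (adjusted p = 0.00746). Both lay above every flox/delta array. Chaf1b was at 9.68, 9.65 and 9.86 and rose by 0.41 ± 0.14 (adjusted p = 0.0336), and Chaf1a at 9.31, 9.51 and 9.46 in flox/delta and 9.79, 9.67 and 9.72 in knockout cells and rose by 0.29 ± 0.09 (adjusted p = 0.0264). Without flox/delta replicate 1 neither passed, at 0.29 (adjusted p = 0.102) and 0.23 (adjusted p = 0.0656). Of the 6 fits that left out an array Chaf1b passed only in that without flox/delta replicate 3, and Chaf1a also missed without knockout replicate 1 (0.26) or 3 (0.30).

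Among repair and checkpoint genes, Exo1 and Chek1 were called higher from near background. Both reached the filter of detection on 3 arrays through the knockout arrays, the group where they were higher. Their calls therefore give no support for a rise. Exo1, a nuclease that resects DNA ends, was at 4.69, 4.69 and 4.41 in flox/delta cells, detected on 1 array, and at 4.81, 5.16 and 5.02 in knockout cells, detected on 3 (0.40 ± 0.12, adjusted p = 0.0226). It did not pass without flox/delta replicate 3 (0.31), knockout replicate 2 (0.32) or knockout replicate 3 (0.39). Chek1 was at 4.88, 5.07 and 5.10, detected on all 3 knockout arrays and on no flox/delta array, a bound of at least 1.21-fold higher with this background correction (adjusted p = 0.0145), and its other probe did not pass (0.36 ± 0.15). Without background correction the difference of Chek1 was 0.10 (adjusted p = 0.166) and that of Exo1 0.12 (adjusted p = 0.124), and in the deposited normalized table they were 0.10 and 0.12. Rad54l was at 8.97, 8.61 and 8.79 and Msh6 at 10.74, 10.92 and 10.70, and neither passed (0.01 ± 0.11 and 0.23 ± 0.16). Brca1, of homologous recombination, was not tested, at 4.43, 4.58 and 4.40 and 4.76, 4.56 and 4.63.

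Pclaf and Lig1 went against the majority. Pclaf was at 9.52, 9.04 and 9.37 in knockout cells, below each of the 3 flox/delta arrays, and fell by 0.79 ± 0.13 (1.73-fold, adjusted p = 0.000991). Lig1 was at 9.69, 9.65 and 9.39 and fell by 0.37 ± 0.12 (adjusted p = 0.0250). A dimmer Lig1 probe passed at -0.39 and the remaining probes did not, at 0.09 and 0.12. Lig1 did not pass without flox/delta replicate 2 (-0.30), flox/delta replicate 3 (-0.36) or knockout replicate 3 (-0.28). The clamp Pcna, to which Pclaf and Lig1 proteins bind, was at 7.22, 7.40 and 6.97 and did not pass (-0.07 ± 0.13).

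The remaining genes named by role did not pass. Mcm10 was at 9.74, 9.90 and 9.84 (-0.02 ± 0.09) and Cdc45 at 8.63, 8.54 and 8.79 (-0.06 ± 0.10). Rpa1 was at 11.96, 12.003 and 11.98 (0.04 ± 0.08), Rpa3 at 10.20, 10.29 and 10.12 (-0.12 ± 0.10), Pold1 at 10.32, 10.34 and 10.33 (0.13 ± 0.11) and Fen1 at 10.97, 10.95 and 10.93 (0.24 ± 0.10, adjusted p = 0.0584). For Mcm10, Cdc45 and Rpa1 the difference was smaller than its SE. A miss of the threshold does not show equal levels.

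Of the 10 calls, Mcm3, Mcm7, Pole and Pclaf passed under each of 15 alternative settings, Rfc1 under 14, Lig1 and Chaf1a under 11, Exo1 under 9 and Chaf1b under 8. Chek1 passed under 8 of the 12 that tested it. Among other replication and repair genes 10 of 44 tested were higher and 5 lower in the knockout, with Tonsl and Asf1b, which handle histones at forks, at 0.88 ± 0.13 and 0.69 ± 0.11, and Pold4, a small subunit of polymerase delta, at -2.04 ± 0.10. Of 16 mitosis genes 6 were higher and 1 lower. Summed signal of 8 astrocyte markers was 11490 to 12250 in flox/delta and 5716 to 6424 in knockout cells, with 6 and 3 detected on all arrays. Slc1a3 made up most of that sum, at a mean of 13.43 in flox/delta and 12.47 in knockout cells (log2 signal). Of 6 tested astrocyte markers 4 were lower in the knockout and 1 was higher, Aldh1l1, at 6.88 and 8.01. Of 9 tested glial progenitor markers 7 were lower in the knockout and 1 higher, with Sox9 at a mean of 9.01 in flox/delta and 6.98 in knockout cells, and their summed signal over 10 markers was 26560 to 27120 and 23810 to 25110. The sum of 4 oligodendrocyte markers was 209 to 344.2 and 80.02 to 81.36, and Gpr17 among them was at 7.55 and 4.38. Summed signal of 6 pluripotency markers was 190 to 704.5 in flox/delta and 226.3 to 351.5 in knockout cells. The part of these in the replication genes' values was not tested.

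**Figure D3:**
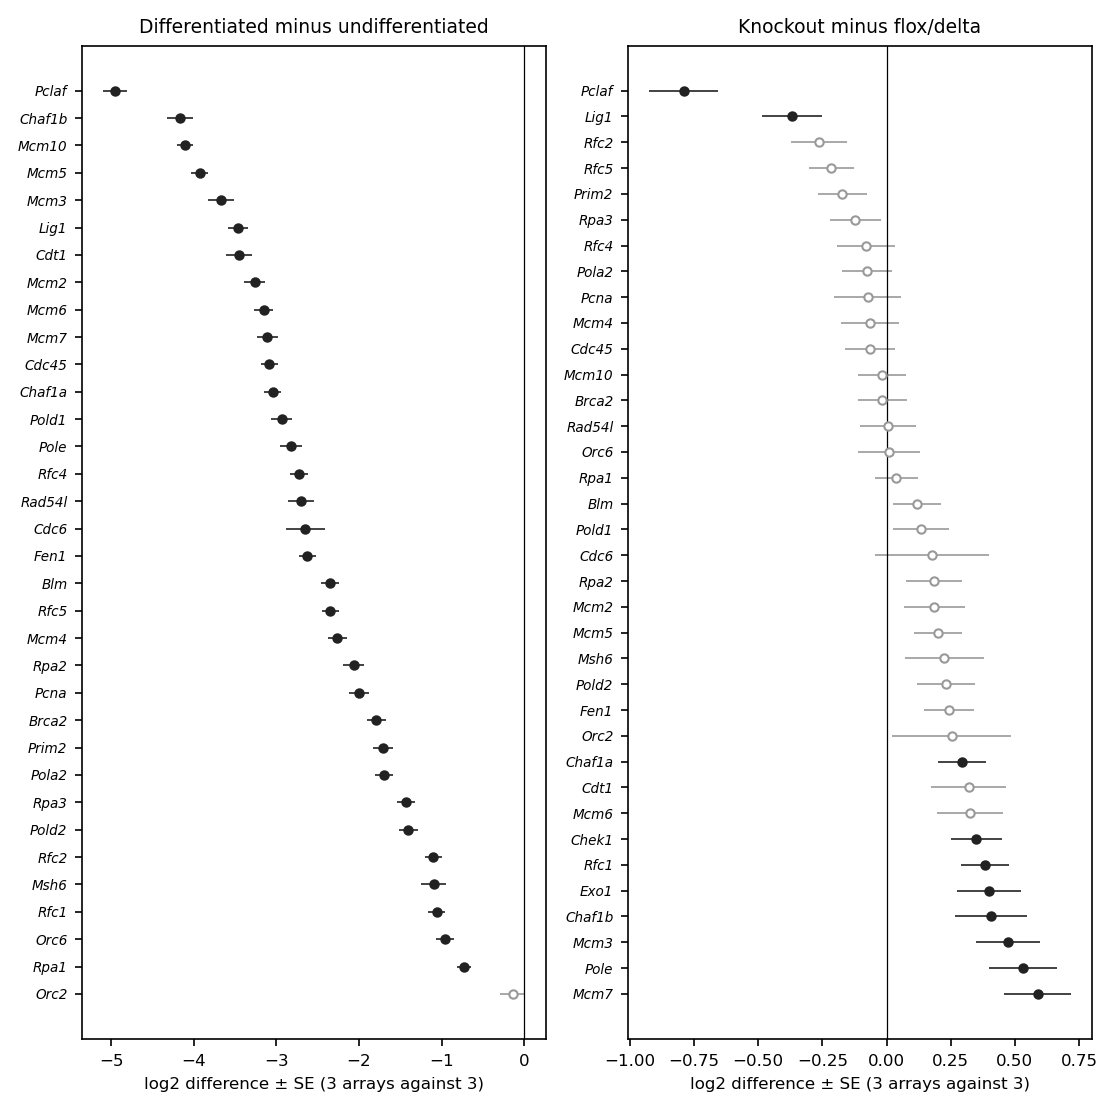
Points give the log2 difference of each tested replication gene with its standard error, for differentiated minus undifferentiated flox/delta cells (left) and knockout minus flox/delta cells (right), 3 arrays against 3; filled points passed at adjusted p under 0.05. On the left 33 of 34 points are filled, from -4.95 for Pclaf to -0.73 for Rpa1, and on the right 10 of 36 are filled, from -0.79 for Pclaf to 0.59 for Mcm7; the scales of the panels differ.

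When let-7 was given to knockout cells, replication genes were mostly below their mock arrays, and no gene of the list passed. Of 38 tested genes 0 passed, where 3 of 9419 genes passed in all (0.0319%, limma with a term for the hybridization), all of them higher and 0% lower. At an unadjusted p under 0.05, 18 replication genes were lower and 1 was higher, beside 835 lower and 904 higher among all genes. With the paired replicate as a block these were 23 and 1, beside 1159 and 1200, and 0 passed after adjustment. Of the 38 genes 30 were lower in each of 3 pairs of let-7 and mock arrays with the same replicate number, where 25.9% of all genes were, and 18 were lower with no overlap between the groups, where 6.72% of all genes were. The median log2 difference was -0.40, against -0.01 over all genes. Without background correction 3 of the list were lower (Mcm2, Chaf1a and Brca2, beside 99 lower and 147 higher genes in all).

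The licensing genes had a median of -0.44 with let-7. For Cdc6 the mock arrays were at 8.79, 9.32, 9.42 and 10.18 (log2 signal; replicate 1 in hybridization 2, then replicates 1, 2 and 3 in hybridization 3) and the let-7 arrays at 7.52, 8.84 and 9.76 (replicate 1 in hybridization 2, replicates 2 and 3 in hybridization 3). Its differences within pairs were -1.27, -0.57 and -0.42, and the fitted difference was -0.75 ± 0.33 (adjusted p = 0.294). Each let-7 array was below its own mock array, and the groups overlapped. Cdt1 differed by -1.11, -0.70 and -0.26 within pairs (-0.69 ± 0.21, adjusted p = 0.186), Mcm2 by -0.83, -0.58 and -0.49 (-0.63 ± 0.15, adjusted p = 0.142) and Mcm5 by -0.75, -0.35 and -0.35 (-0.48 ± 0.13). Orc2 was the exception among these genes, with 0.42, 0.43 and 1.22 within pairs (0.69 ± 0.27, adjusted p = 0.256). Its signal was near background here too, detected on 2 of 3 mock arrays of hybridization 3.

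Chromatin assembly and repair genes had the lowest medians by role with let-7, -0.52 over 2 and -0.49 over 7 genes. Chaf1b differed by -0.74, -0.24 and -0.34 within pairs and Chaf1a by -0.91, -0.53 and -0.34 (-0.60 ± 0.14, adjusted p = 0.142). Brca2 differed by -0.83, -0.62 and -0.50 (-0.65 ± 0.12, adjusted p = 0.130), with a small SE beside its size. Rad54l differed by -0.95, -0.52 and -0.01 and Brca1 by -0.37, -1.06 and -0.18. Mcm10 differed by -0.89, -0.59 and -0.22, Pole by -0.97, -0.46 and -0.25 and Lig1 by -0.66, -0.43 and -0.31. All of these were negative in each pair. Others were near 0 or mixed: Rpa3 differed by -0.14, 0.18 and 0.05, Prim1 by 0.05, -0.52 and 0.55 and Chek1 by -0.45, -0.34 and 0.72.

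When miR-125 was given, most replication genes were below mock, without a call. Of 38 tested genes 0 passed, where 0 of 9308 passed (0%, limma within hybridization 3), and at an unadjusted p under 0.05 there were 18 replication genes lower and 0 higher, beside 952 lower and 876 higher among all genes. With the paired replicate as a block these were 26 and 0, beside 1564 and 1338, and 0 passed after adjustment. Of the 38 genes 31 were lower in each pair, where 29.5% of all genes were, and 24 were lower with no overlap between the groups, where 13.8% of all genes were. The median was -0.46, against -0.02 over all genes. In 1 fit over all 3 groups of hybridizations 2 and 3, 4 of the list were lower (Rfc1, Lig1, Rfc5 and Brca2, beside 161 lower and 201 higher genes in all). This comparison shares mock replicates 2 and 3 with that of let-7, and the mock arrays of replicate 1 may share a treatment. The values are therefore given side by side and no likeness between them is drawn.

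Fragment joining had the lowest median by role with miR-125 (-0.86 over 2 genes). Fen1 was at 12.39, 12.21, 12.17 and 12.12 on the mock arrays, in the order given above, and at 10.10, 11.26 and 11.60 with miR-125 (replicates 1 to 3, hybridization 3). All 3 miR-125 arrays lay below the 3 mock arrays of the same hybridization, with pair differences of -2.11, -0.91 and -0.52. The fitted difference was -1.18 ± 0.37 (2.27-fold, adjusted p = 0.157). Replicate 1 gave the largest of the pair differences. With let-7, Fen1 was at 11.71, 11.88 and 12.07 (-0.34 ± 0.15). Lig1 differed by -0.74, -0.39 and -0.47 with miR-125 (-0.54 ± 0.13, adjusted p = 0.123). Its other probes ranged widely, at -1.14, -0.62 and -0.33, and none passed.

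Prim1, the catalytic primase subunit, was at 4.87, 6.82, 6.41 and 6.05 with mock and 5.0, 5.49 and 5.69 with miR-125 (-1.03 ± 0.25, adjusted p = 0.123). The mock array of hybridization 2 was lower than the miR-125 arrays, and only 1 of 3 miR-125 arrays was above background. Pclaf was at 10.55, 10.50, 10.52 and 10.01 with mock, 9.70, 10.28 and 10.13 with let-7 and 8.74, 9.96 and 9.68 with miR-125. Its difference was -0.89 ± 0.33 with miR-125 (adjusted p = 0.207) and -0.32 ± 0.22 with let-7 (adjusted p = 0.470), and its lowest array was miR-125 replicate 1.

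The clamp loader genes had a median of -0.60 with the clamp genes included, over 6 genes with miR-125, and -0.35 with let-7. Rfc1 was at 11.81, 11.69, 11.51 and 11.43 with mock and 10.80, 10.99 and 10.87 with miR-125 (-0.66 ± 0.13, adjusted p = 0.108). All 3 of its miR-125 arrays lay below the 3 mock arrays of the same hybridization. Rad54l differed by -1.20, -0.61 and -0.41 within pairs (-0.74 ± 0.22), Chaf1b by -1.05, -0.63 and -0.34 (-0.67 ± 0.19) and Pole by -0.87, -0.61 and -0.33 (-0.60 ± 0.18). Cdc6 differed by -0.86, -0.38 and -0.61, Cdt1 by -0.69, -0.49 and -0.16, Mcm2 by -0.56, -0.61 and -0.36 and Mcm5 by -0.82, -0.35 and -0.35. Mcm10 differed by -0.74, -0.34 and -0.12, Cdc45 by -0.78, -0.28 and -0.32 and Rpa1 by -0.37, -0.41 and -0.37. Those 10 genes were negative in every pair, while Pcna (-0.98, 0.00 and -0.26), Chek1 (-0.03, -0.19 and 0.63), Brca1 (-1.38, -1.03 and 0.45) and Orc2 (-0.53, -0.11 and 0.65) were not.

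**Figure D4:**
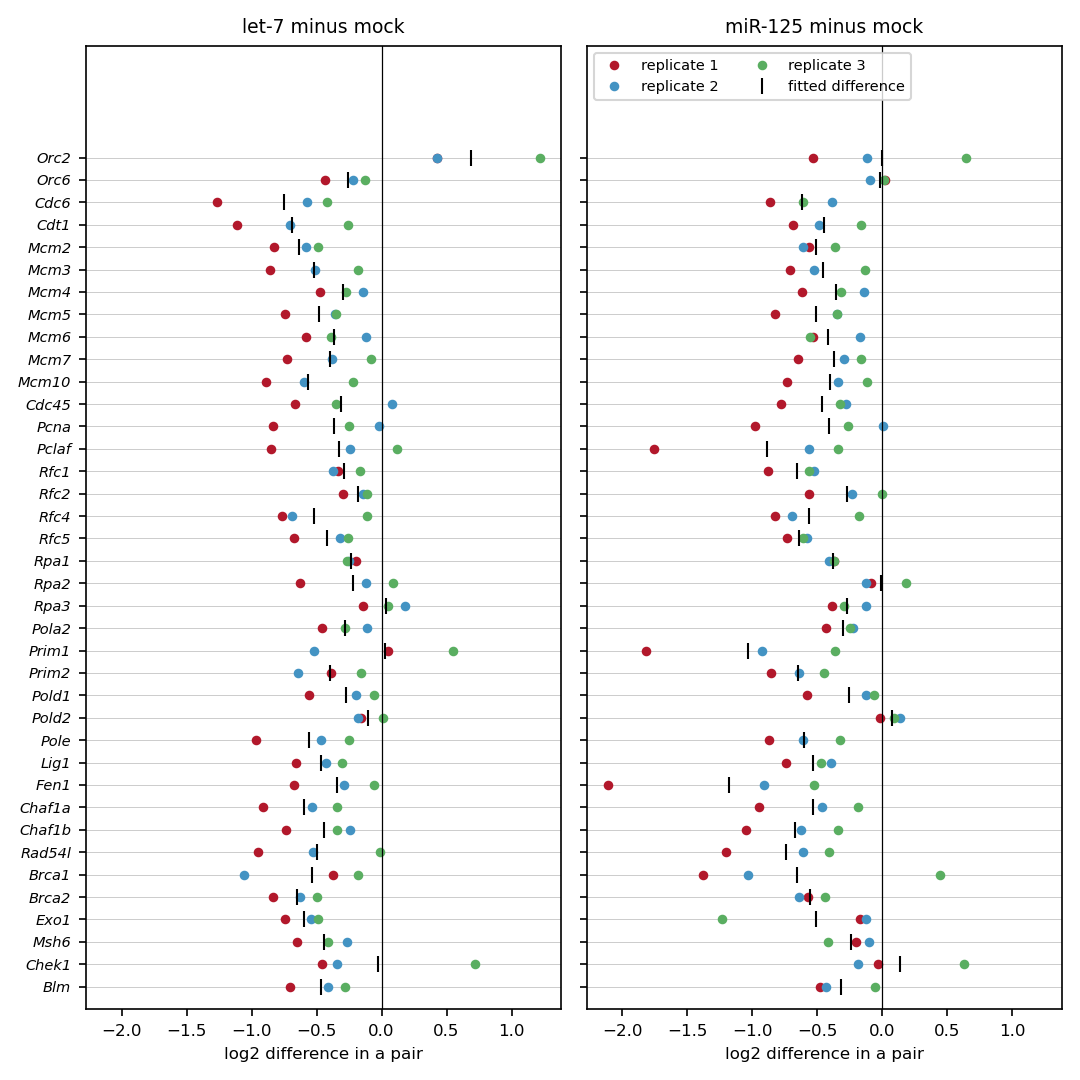
Each coloured point is the log2 difference of a gene between an array given let-7 (left) or miR-125 (right) and the mock array of the same replicate number, and the black tick is the fitted difference, for the 38 tested genes in the order of their roles. Most points lie left of 0, and replicate 1 (red) lies farthest left for 32 genes with let-7 and 29 with miR-125.

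Replicate 1 carried the largest differences with both microRNAs. With let-7 the median of the 38 genes within pairs 1, 2 and 3 was -0.67, -0.35 and -0.23, and pair 1 was the lowest for 32 genes, where it was the lowest for 34.3% of all genes. With miR-125 the medians were -0.70, -0.39 and -0.32, and pair 1 was the lowest for 29 genes, again against 34.3%. The medians over all genes lay between -0.02 and -0.01 in each of these pairs. The let-7 pair of replicate 1 was in hybridization 2 and the miR-125 pair in hybridization 3, each with a mock array of its own. These mock arrays carry the same replicate number and may share a treatment, so the pairs are not known to be separate observations. Without the let-7 array of replicate 1, which leaves hybridization 3 alone, the let-7 median was -0.27, and without the miR-125 array of replicate 1 the miR-125 median was -0.31. The tested mitosis genes had medians of -0.34 with let-7 and -0.50 with miR-125, over 16 genes each. The summed signal of 8 mesenchymal and smooth muscle markers was 1063 to 3232 on mock, 479.7 to 1793 on let-7 and 4215 to 7498 on miR-125 arrays, with 1 marker, Acta2, detected on all arrays of each group. Acta2 made up most of that sum, at a mean of 10.58 on mock, 9.15 on let-7 and 12.33 on miR-125 arrays. Col3a1 was at 6.12, 6.43 and 5.94, detected on 3 of 4 mock, 2 of 3 let-7 and 1 of 3 miR-125 arrays. Tagln, Cnn1, Col1a1, Col1a2, Thy1 and Pdgfrb were detected on at most 1 array of a group. The part of these markers in the values above was not tested.

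**Figure D5:**
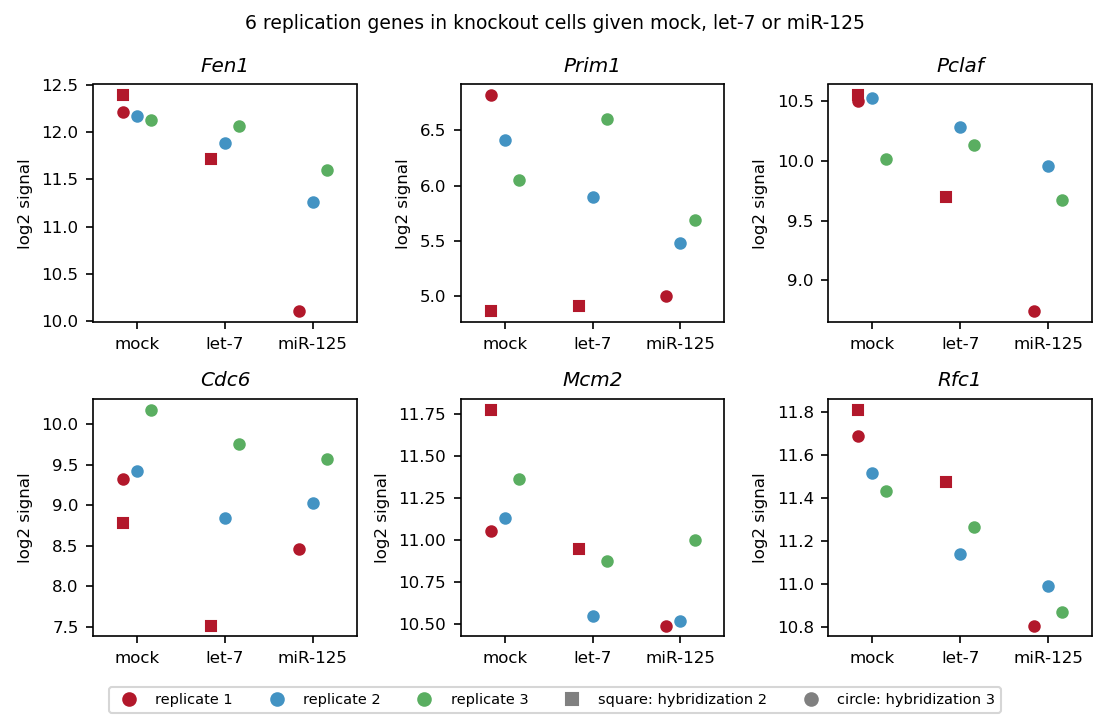
Points give the log2 signal of 6 replication genes on each of the 10 knockout arrays given mock, let-7 or miR-125, coloured by replicate, with squares for hybridization 2 and circles for hybridization 3. Fen1 on miR-125 replicate 1 stands at 10.10, below the 12.12 to 12.21 of the mock arrays of hybridization 3. Prim1 on the mock array of hybridization 2 stands at 4.87, below the other mock arrays.

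Set directly against each other, let-7 and miR-125 arrays gave no call within the list. Of 38 tested genes 0 passed, where 119 of 9923 did (1.2%, with 0.494% higher with let-7 and 0.705% lower). At an unadjusted p under 0.05, 4 of the 38 were higher with let-7 and 0 lower, beside 969 higher and 840 lower among all 9923 genes. The count of higher genes is thus close to the share over all genes. With the replicate number as a block 0 of the list passed, beside 319 higher and 262 lower among all genes. In all 5 comparisons Orc1, Gmnn, Pola1 and Pole2 stayed below the filter. The median was 0.11 (let-7 minus miR-125), 0.03 with the replicate block, and -0.03 without miR-125 replicate 1. Among genes detected on all arrays of both groups the largest differences were those of Fen1 (0.90 ± 0.35, adjusted p = 0.218) and Pclaf (0.62 ± 0.33, adjusted p = 0.357). Prim1 (0.90 ± 0.28) was detected on 2 of 3 let-7 and 1 of 3 miR-125 arrays, so that its difference is not ranked. For Fen1 the let-7 arrays lay above all miR-125 arrays, and for Prim1 and Pclaf the groups overlapped. In these groups the let-7 array of replicate 1 lay in hybridization 2 and all miR-125 arrays in hybridization 3. The 4 genes below an unadjusted p of 0.05 were Fen1, Prim1, Rfc1 and Rpa3. On the probes that represent them, the MCM genes lay within 0.15 log2 units of 0, with SEs of 0.15 to 0.24, from -0.06 ± 0.21 for Mcm10 to 0.14 ± 0.15 for Mcm6. Some other probes lay farther from 0, at -0.47 (Mcm4), -0.39 (Mcm6) and 0.32 (Mcm10). The rest were at -0.12 (Mcm4) and at 0.14 and 0.07 (Mcm6), and none of these probes passed. With 3 arrays a group a difference of the size of these SEs was not detectable.

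Of the 8 genes that were higher in the knockout, 8 had a negative difference with let-7 and 7 with miR-125, and 0 passed with either. Over the whole list 35 of 38 were negative with let-7 and 35 of 38 with miR-125, so these counts are close to those of the list. The let-7 and miR-125 comparisons share mock arrays, and the arrays of the knockout comparison are separate from both. Mcm7 was at 0.59 in the knockout, -0.40 with let-7 and -0.37 with miR-125, and Mcm3 at 0.47, -0.52 and -0.46. Pole was at 0.53, -0.56 and -0.60, and Rfc1 at 0.38, -0.29 and -0.66. Chek1 was the gene that was positive with miR-125 on the probe that represents it (0.14 ± 0.27), while its other probe was at -0.70 ± 0.36. Chek1 and Exo1 had reached the detection filter of the knockout comparison through the knockout arrays. Pclaf, lower in the knockout at -0.79, was also negative with let-7 and miR-125, at -0.32 and -0.89, as was Lig1 at -0.37, -0.46 and -0.54. The list median was -2.64 with differentiation, -0.40 with let-7 and -0.46 with miR-125. For Mcm5 the differences were -3.93, -0.48 and -0.51. Some genes with smaller falls lay nearer, with Rfc1 at -1.06, -0.29 and -0.66 and Rpa1 at -0.73, -0.24 and -0.38. Differentiation was measured in flox/delta cells of hybridization 1, and the microRNAs in knockout cells of hybridizations 2 and 3. These sizes were not tested against each other.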

How the data were processed

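Illumina bead arrays measured RNA on 19 arrays, of which 5 were entered again for a further comparison and counted once. Per the file headers, the deposited table of non-normalized values holds, per array, the intensity and the detection p-value of 25697 probes, and the deposited normalized tables give log2 signals for the authors' separate comparisons; the submitters' processing notes name limma. The log2 tables served only as an alternative, because they number replicates 1 and 3 of 2 groups the other way from the non-normalized table.

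Intensities were background-corrected and quantile normalized with neqc (limma 3.58.1, R 4.3.3, offset 16), with hybridization 1 and hybridizations 2 and 3 normalized apart. Of the probes, 23978 have a gene name from the platform annotation and 1719 have none. A gene was tested where its probe had a detection p under 0.05 on at least 3 arrays of a comparison, and "all genes" includes unnamed probes. Differences were tested with limma's lmFit and eBayes. Tests were two-sided, and p-values were adjusted by Benjamini-Hochberg across every gene in the comparison. The let-7 fit holds a hybridization term and leaves out the mock replicate 1 of hybridization 3, which may share its treatment with that of hybridization 2. The number of arrays limits the precision.

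The replication genes and the other lists were chosen with earlier results of these data known. Named genes are a set chosen by role, the 6 largest differences per comparison, and calls against the majority. Replicate numbers pair mock, let-7 and miR-125 arrays, because the labels make them separate tamoxifen treatments. Same-numbered arrays deviated together with correlations of 0.65 to 0.87 (let-7) and 0.37 to 0.56 (miR-125) across genes. The let-7 pairs do not all lie in the same hybridization, and a shift between hybridizations alone could make both arrays of a pair deviate together. The let-7 correlations therefore do not test the pairing. All miR-125 pairs lie in the same hybridization. Differently numbered arrays were not correlated for comparison.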

Additional observations from a re-analysis of the deposited data

How the results depend on the processing

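In differentiation the 33 falls passed under each of 15 alternatives, and the median of -2.64 became -1.83 without background correction, -1.80 in the deposited normalized table and -2.16 without the filter. In the knockout comparison, normexp with median scaling gave 3 higher and 1 lower replication genes, and 4 were lower without background correction and 4 in the deposited table. Leaving out each array gave 5 to 8 higher and 1 to 3 lower. With let-7, 3 genes were lower without background correction (Mcm2, Chaf1a and Brca2) and 3 in the deposited table. With miR-125, 1 was lower without background correction (Rfc1), 1 in the deposited table (Rfc1) and 4 in 1 fit over all groups (Rfc1, Lig1, Rfc5 and Brca2). The median of let-7 minus miR-125 turned to -0.0325 without miR-125 replicate 1, and that of miR-125 became -0.31. The cause of these shifts was not tested. With the replicate block, the knockout comparison gave 10 higher and 3 lower replication genes (29.3% and 27.2% of all genes) and let-7, miR-125 and their direct comparison 0, while all-gene calls of the direct comparison went from 119 to 319 higher and 262 lower.

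Over all genes, knockout calls went from 2576 higher and 2419 lower to 1640 and 1220 with normexp and median scaling. For let-7, 3 higher and 0 lower became 147 and 99 without background correction and 148 and 102 in the deposited table, 18 and 0 with normexp, 12 and 1 with 1 fit over all groups, 7 and 0 with the mock replicate 1 of hybridization 3 added, and 6 and 0 with the replicate block. For miR-125, 0 became 93 and 60, 104 and 77, and with 1 fit over all groups 201 and 161. The direct comparison, 49 and 70, became 193 and 181 without background correction, 4 and 13 without the filter, 95 and 111 with detection on every array of a group, and 0 and 0 in hybridization 3 alone. Differences of dim genes such as Orc2, Prim1, Exo1 and Chek1 are limited by signal near background.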
